A study of Mus musculus with 6 samples.

Results

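The 40 genes described here are imprinted genes of the mouse, that is, genes whose RNA comes mainly or only from the copy inherited from one parent. They were chosen by symbol, as a list of known imprinted genes under a rule that uses no measured value, and all 40 were found among the 48709 genes of the count table. By the class assigned to each gene, the maternal copy is the expressed one for 13 of them and the paternal copy for 22. The remaining 5 (Grb10, Gnas, Ube3a, Commd1 and Copg2) were classed as dependent on the tissue or the promoter. The classes were not measured in these ovaries and do not exclude tissue dependence among the other genes. They fall into 16 loci, of which 9 hold more than 1 listed gene, and 17 of the 40 lie on chromosome 7.

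Imprinted genes lie in clusters around an imprinting control region, a stretch of DNA that carries methylation on the maternal or the paternal chromosome only and sets which genes of the cluster are active on each. In somatic cells of the gonad these marks are kept, whereas primordial germ cells erase them around and after their arrival in the fetal gonad. New marks are laid down later, in oocytes after birth and in the male germline before birth. Many of the genes act on fetal growth, on the placenta or on the cell cycle. The counts used here sum the RNA of both parental copies, so a level says nothing of which copy it came from.

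Polyadenylated RNA of ovaries at 13.5 dpc (days post coitum) of the outbred CD1 strain was sequenced in 3 control and 3 APAP+IBU libraries. Wild type CD1 dams had received either acetaminophen (APAP, 30 mg/kg per day) and ibuprofen (IBU, 15 mg/kg per day), or the ethanol diluent, from 10.5 to 13.5 dpc. Gavages were given 4 times per day at intervals of 3 h, with the drugs in alternation. Each library came from its own pool of fetal gonads of a pair of dams, so that a library averages several embryos and its spread is that between pools. The comparison addresses how exposure in utero altered RNA levels in the fetal ovary.

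Total counts ran from 37811968 to 48954631 per library, and reads of the 40 genes made up 1.46% to 1.55% of them. Both replicate 3 libraries stood apart, since the summed level of 20 liver genes was 2187 CPM (counts scaled to a common library size) in the control and 3570 CPM in the exposed one, against 208 to 592 CPM in the others. Of these 20 genes only Tdo2 was at 0 in any library. The 10 spermatid genes summed to 39.5 to 142 CPM in controls and 1.88 to 5.84 CPM after exposure. Of the further lists, 13 erythroid genes ranged from 7071 to 17253 CPM in controls and from 3196 to 10248 CPM after exposure, 10 neuronal genes from 54.0 to 72.3 and from 23.8 to 33.2 CPM, and 7 genes of testis supporting cells from 55.2 to 97.0 and from 44.3 to 59.4 CPM. The 10 supporting cell genes summed to 1112 to 1480 CPM in controls and 1229 to 1416 CPM in exposed ovaries. Foxl2 among them was low and uneven, with 8.16, 2.38 and 0.944 CPM in controls and 2.21, 4.37 and 5.21 CPM after exposure. The 10 germ cell genes summed to 1316 to 1410 and 1254 to 1648 CPM. In replicates 1 and 2, 4 of these were higher and 6 lower, for instance Dazl at 0.68 and Pou5f1 at -0.95 on the log2 scale, which the sum hides. For 10 genes each, in controls and then exposed ovaries, stromal genes summed to 3534 to 5054 and 3168 to 3689 CPM. Endothelial genes summed to 555 to 594 and 464 to 532 CPM, and mesonephric genes to 239 to 265 and 217 to 253 CPM. The part of these lists in the values below was not tested. A fit with the liver list as a covariate called 0 of the 40 genes, but so did the fit without it, so this count cannot show a liver share. Values are given for all 6 libraries and, where a call differed, also for replicates 1 and 2 of each group.

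Several of the 40 genes carry microRNAs within their bodies, and in 1 of them, Rtl1, most lie on the opposite strand. Mature microRNAs have no poly(A) tail and were not measured. Those of H19, Mest and Rtl1 are shown because the host genes differ in this respect, with the seed (bases 2 to 8) in capitals, after RefSeq on GRCm38.p6. The first pair is released from H19 and the second from the Mest intron, on the strand of the gene, while the last 3 are encoded opposite to Rtl1, by the maternal chromosome, and are complementary to its RNA along their whole length.
miR-675-5p, chr7:142577112-142577133, minus strand: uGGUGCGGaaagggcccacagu
miR-675-3p, chr7:142577078-142577099, minus strand: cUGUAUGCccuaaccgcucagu
miR-335-5p, chr6:30741314-30741336, plus strand: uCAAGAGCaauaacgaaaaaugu
miR-335-3p, chr6:30741354-30741375, plus strand: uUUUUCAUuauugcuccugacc
miR-433-3p, chr12:109591781-109591802, plus strand: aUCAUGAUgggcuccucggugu
miR-127-3p, chr12:109592888-109592909, plus strand: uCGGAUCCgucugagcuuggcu
miR-136-5p, chr12:109595331-109595352, plus strand: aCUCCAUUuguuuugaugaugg
The region of Rtl1 held 11 mature microRNAs of 6 hairpins on the opposite strand, and Mirg held 26 of 14 hairpins on its own strand. No seed was shared among the 7 shown.

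Methylated imprinting control regions are kept by the zinc finger protein ZFP57, which binds the methylated hexamer TGCCGC. RefSeq gave 52 start sites for 33 of the 40 genes, and within 250 bases before to 50 bases after them the hexamer occurred, on either strand, in 12 windows (23.1%), against 11.6% of 32851 windows of all genes. The ratio of observed to expected CpG had a median of 0.602 in the windows of the imprinted genes and 0.384 over all. The 250 bases before 5 of these start sites are printed with the hexamer and its reverse complement GCGGCA in capitals. Zdbf2 had the most matches, Mest and Plagl1 start within known maternally methylated regions, and Peg3 and Zim1 are neighbours that are expressed from opposite chromosomes.
Zdbf2 promoter, chr1:63200108-63200357, plus strand: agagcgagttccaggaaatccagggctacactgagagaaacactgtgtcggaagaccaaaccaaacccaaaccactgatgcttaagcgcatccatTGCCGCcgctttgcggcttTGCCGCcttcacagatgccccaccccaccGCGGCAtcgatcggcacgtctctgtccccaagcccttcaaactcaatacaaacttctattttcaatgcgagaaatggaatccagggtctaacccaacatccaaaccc
Mest promoter, chr6:30737800-30738049, plus strand: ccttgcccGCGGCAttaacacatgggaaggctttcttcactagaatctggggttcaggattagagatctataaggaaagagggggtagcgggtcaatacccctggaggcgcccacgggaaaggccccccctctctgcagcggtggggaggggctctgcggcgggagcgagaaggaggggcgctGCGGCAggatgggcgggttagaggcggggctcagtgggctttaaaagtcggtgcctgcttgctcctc
Plagl1 promoter, chr10:13090582-13090831, plus strand: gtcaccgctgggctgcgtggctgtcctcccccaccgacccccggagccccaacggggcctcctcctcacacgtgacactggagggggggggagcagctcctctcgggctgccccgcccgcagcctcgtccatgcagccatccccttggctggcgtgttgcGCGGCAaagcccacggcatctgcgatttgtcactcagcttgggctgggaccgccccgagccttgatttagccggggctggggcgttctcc
Zim1 promoter, chr7:6696433-6696682, minus strand: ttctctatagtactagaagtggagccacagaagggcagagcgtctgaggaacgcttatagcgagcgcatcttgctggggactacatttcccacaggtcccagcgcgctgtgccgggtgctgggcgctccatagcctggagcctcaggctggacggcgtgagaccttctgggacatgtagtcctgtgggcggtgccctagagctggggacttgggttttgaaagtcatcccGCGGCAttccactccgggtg
Peg3 promoter, chr7:6730420-6730669, minus strand: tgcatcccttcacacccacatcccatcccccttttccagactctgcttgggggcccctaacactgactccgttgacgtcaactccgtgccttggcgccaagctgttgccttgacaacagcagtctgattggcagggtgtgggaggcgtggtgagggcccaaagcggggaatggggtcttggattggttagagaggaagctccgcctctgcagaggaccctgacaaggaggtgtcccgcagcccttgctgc
There were 3, 2, 1, 1 and 0 matches in these stretches. The windows of Peg3 and Usp29 shared 263 bases on opposite strands, since both genes start from one region. Of the start sites that RefSeq gave for Zdbf2, the printed one lay upstream of the gene body of chr1:63273265-63314576 in the GENCODE annotation, while the window of the other, chr1:63273019-63273318, overlapped its start and held 0 matches.

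All 40 genes passed the expression filter, and 39 had more than 1 CPM in every library. The exception was Ascl2, with 0.907 and 0.983 CPM in exposed replicates 1 and 2. On a scale that allows genes to be compared, CPM per kilobase of exons averaged over the 6 libraries, the median of the 40 genes was 11. The leading gene was H19 with 1881 CPM per kilobase, followed by Igf2 with 469, Mest with 249.8, Cdkn1c with 145 and Peg3 with 122. A further 16 genes lay between 10 and 100 and 16 between 1 and 10. Below 1 were Ascl2 with 0.935, Rtl1 with 0.464 and the very long Kcnq1ot1 with 0.308. H19 and Igf2 together supplied between 43.5% and 56.1% of all reads of the 40 genes.

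With all 6 libraries, the quasi-likelihood test of edgeR over 20167 genes, adjusted by the Benjamini-Hochberg procedure, called 0 of the 40 genes at an adjusted p under 0.05, against a background of 0% of all genes tested. Of the 40 genes 20 had a higher and 20 a lower mean after exposure, the smallest adjusted p was 0.695, and the log2 fold changes ran from -0.70 for Ascl2 to 0.57 for Zim1. At an unadjusted p under 0.05 stood 1 higher gene, Magel2, against 2.99% of all genes, and 2 lower ones, Rtl1 and Asb4, against 3.2% of all genes (6.19% in either direction). DESeq2 called none of the 40 either, while it called 0.952% of all genes. The ranges of the groups did not overlap for 7 of the 40 genes (17.5%), against 10.7% of all genes. These were Magel2 and Mkrn3, higher after exposure (4.78% of all genes), and Igf2, Rtl1, Peg12, Copg2 and Asb4, lower after exposure (5.92% of all genes). In pooled tissue a lower share of the cells that make an RNA cannot be told apart from less of it per cell.

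With replicates 1 and 2 only, 16 of the 40 genes (40%) passed an adjusted p of 0.05, against 27.5% of 20633 genes. Kcnq1ot1, Airn, Peg3, Zim1, Ube3a, Ppp1r9a and Impact rose, which were 7 genes or 17.5% against a background of 14.4%. H19, Cdkn1c, Phlda2, Slc22a18, Ascl2, Dlk1, Ndn, Asb4 and Commd1 fell, which were 9 genes or 22.5% against 13.1%. Each of these 16 had the same sign over all 6 libraries, which include these replicates, so the agreement is not independent. Control replicate 3 often did not follow these differences, and exposed replicate 3 departed from them less often. Of the 15 genes that were higher in both exposed replicates than in both controls (37.5%, against 33.3% of all genes), control replicate 3 lay nearer to the exposed pair for 11, and it was above exposed replicate 3 for 13. Exposed replicate 3 lay nearer to the control pair for 7 of them. Of the 15 that were lower in both (37.5%, against 35.5% of all genes), control replicate 3 lay nearer to the exposed pair for 10 and was below exposed replicate 3 for 10. Exposed replicate 3 lay nearer to the control pair for 4. The positions of these libraries were not counted over all genes, so they are not a trait of the 40 genes. Without control replicate 3 alone, edgeR called 3 of the 40 (7.5%, against 6.82% of all genes), Zim1 and Ube3a being higher (3.75% of all genes) and Cdkn1c lower (3.07%).

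**Figure D1:**
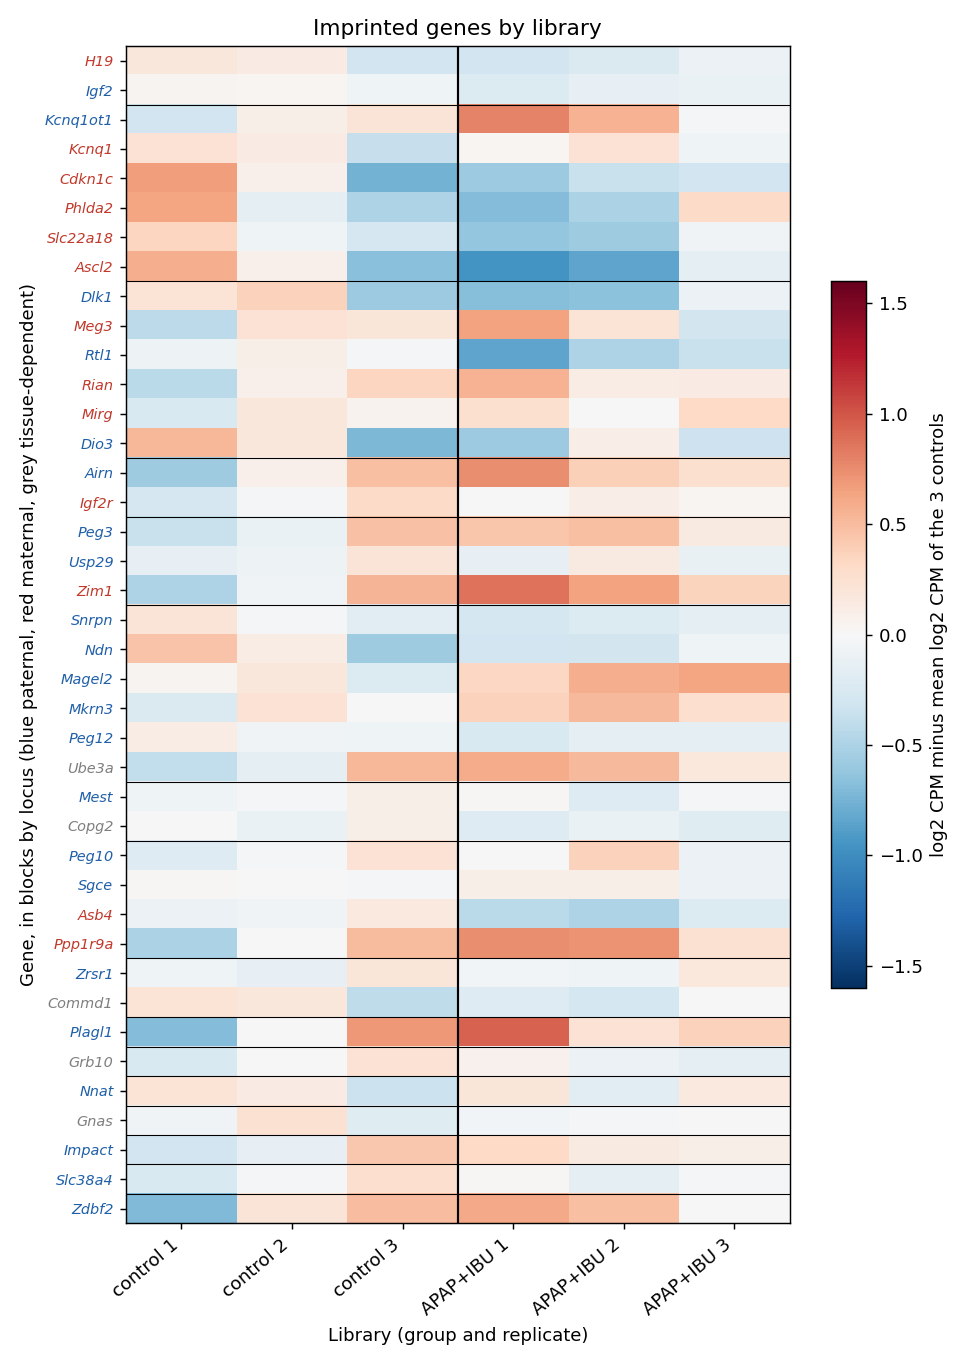
Level of each of the 40 genes (rows, in blocks by locus) in each library (columns), as log2 CPM minus the mean log2 CPM of the 3 controls, with red above and blue below that mean; gene names are blue for paternal, red for maternal and grey for tissue-dependent expression. Exposed replicates 1 and 2 share strong colours, for instance red for Zim1 and blue for Ascl2, while exposed replicate 3 is paler in most rows and control replicate 3 often takes the colour of the exposed pair.

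Lengths and base composition of the genes moved with these differences. Across the 40 genes the log2 fold change of replicates 1 and 2 had a Spearman correlation of -0.56 with the GC content of the longest transcript and of 0.68 with exon length, against -0.47 and 0.33 across 20567 genes, all measured in the same libraries. Of the 16 genes with a GC content of 50% or more, 3 were higher and 13 lower with a median log2 fold change of -0.31, and of the 24 below it 18 were higher and 6 lower with a median of 0.39. After each library was corrected for both properties, the medians were -0.080 and -0.11. The correction left 8 of the 40 genes (20%) called, against 14.5% of 20567 genes. Zim1 and Ppp1r9a stayed higher (5%, against 5.94%), and Dlk1, Ndn, Asb4, Commd1, Usp29 and Sgce were lower (15%, against 8.57%). Of the 16 genes called without correction 6 were among these, and Usp29 and Sgce were called only with it.

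**Figure D2:**
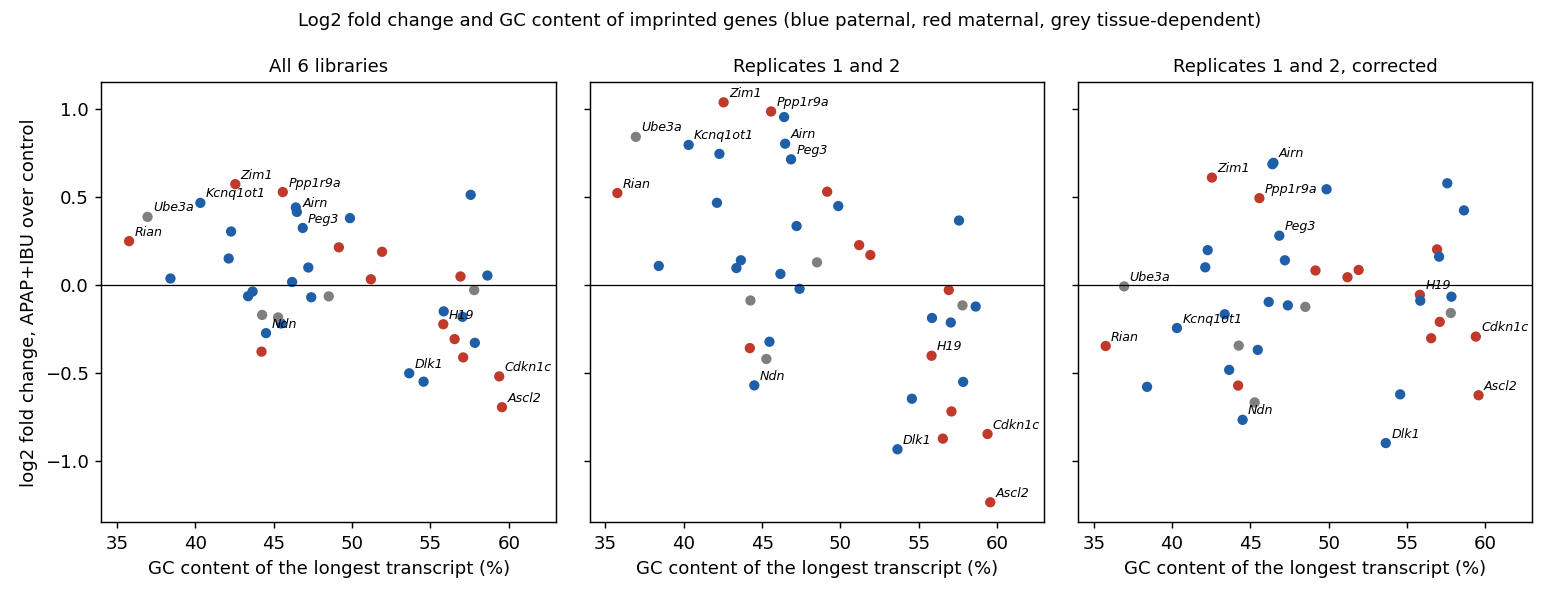
Log2 fold change of the 40 genes (vertical axis) against the GC content of the longest transcript in percent (horizontal axis) with all 6 libraries, with replicates 1 and 2, and with replicates 1 and 2 after correction for length and GC content; each point is a gene, blue for paternal, red for maternal and grey for tissue-dependent expression. In the middle panel GC-poor genes such as Zim1 and Ube3a lie above 0 and GC-rich ones such as Ascl2 and Cdkn1c below it, and in the right panel Ube3a is near 0.

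H19 and Igf2 lie side by side on distal chromosome 7, share their enhancers and are expressed from opposite chromosomes. H19 (chr7:142575529-142578143, minus strand, GRCm38) makes an untranslated RNA from the maternal copy, and Igf2 (chr7:142650766-142666816, minus strand) makes the insulin-like growth factor that drives fetal growth from the paternal copy. The level of H19 was 5576, 5382 and 4005 CPM in control replicates 1, 2 and 3 and 3978, 4187 and 4638 CPM in APAP+IBU replicates 1, 2 and 3. Control replicates 1 and 2 were highest, and control replicate 3 lay among the exposed libraries. Its log2 fold change was -0.22 (SE 0.17, adjusted p = 0.708) over 6 libraries and -0.40 (SE 0.093, adjusted p = 0.0187) in replicates 1 and 2, where it fell to 0.756 of the control level, and it was -0.057 (adjusted p = 0.774) after correction. The level of Igf2 was 2901, 2882 and 2699.5 CPM in control replicates 1, 2 and 3 and 2427, 2574 and 2635 CPM in APAP+IBU replicates 1, 2 and 3. Every exposed library lay below every control, although by little, with 2827 ± 111 CPM in controls and 2545 ± 107 CPM after exposure (mean ± SD, n = 3 each). On the log2 scale Igf2 differed by -0.15 (SE 0.13, adjusted p = 0.724) over 6 libraries and -0.19 (adjusted p = 0.165) in replicates 1 and 2. Neither gene was called by edgeR with all libraries. Of the 5723 exon bases of Igf2, 3596 were shared with the gene Gm49394 on the same strand. How this overlap bears on the Igf2 level and on its ratio to H19 was not tested.

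Next on chromosome 7 lies the cluster controlled by Kcnq1ot1 (chr7:143203458-143296549, minus strand), a long noncoding RNA made from the paternal copy within Kcnq1 that silences the neighbouring genes on that chromosome. With replicates 1 and 2, Kcnq1ot1 rose and 4 of the 5 maternally expressed genes fell, and none of these 5 calls remained after correction for length and GC content. In the same fits 27.5% and 14.5% of all genes tested were called. Kcnq1ot1 was measured at 19.4, 25.3 and 27.6 CPM in control replicates 1, 2 and 3 and 41.4, 34.9 and 23.4 CPM in APAP+IBU replicates 1, 2 and 3. Its replicate 3 value after exposure lay within the control range. The log2 fold change was 0.47 (SE 0.23, adjusted p = 0.695) with 6 libraries, 0.80 (SE 0.16, adjusted p = 0.0131) with replicates 1 and 2 and -0.25 (adjusted p = 0.165) after correction, so that its direction turned. Cdkn1c (chr7:143458339-143461050, minus strand), which encodes an inhibitor of cyclin-dependent kinases and was the highest gene of this cluster per kilobase, had 513, 342 and 192 CPM in control replicates 1, 2 and 3 and 216, 252 and 261 CPM in APAP+IBU replicates 1, 2 and 3. Controls spread widely, from the highest to the lowest value of all 6 libraries. Its log2 fold change was -0.52 (SE 0.31, adjusted p = 0.697) with 6 libraries, -0.85 (SE 0.18, adjusted p = 0.0149) in replicates 1 and 2, -0.81 (adjusted p = 0.0408) without control replicate 3 and -0.30 (adjusted p = 0.165) after correction.

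Phlda2, which restrains growth of the placenta, had 19.9, 11.7 and 9.14 CPM in controls and 7.93, 9.04 and 15.9 CPM after exposure, and exposed replicate 3 was second only to control replicate 1. The transporter gene Slc22a18 had 15.1, 11.3 and 9.88 CPM in controls and 7.73, 8.04 and 11.5 CPM after exposure. The lowest of the cluster was Ascl2, a transcription factor needed for the placenta, with 2.65, 1.87 and 1.11 CPM in controls and 0.907, 0.983 and 1.59 CPM after exposure. In replicates 1 and 2 these genes fell with log2 fold changes of -0.88 (adjusted p = 0.0395), -0.72 (adjusted p = 0.02998) and -1.24 (adjusted p = 0.0321) in edgeR's test, and with all 6 libraries the values were -0.31 (adjusted p = 0.777), -0.41 (adjusted p = 0.696) and -0.70 (adjusted p = 0.696). Kcnq1 itself, a potassium channel gene, had 11.8, 11 and 7.83 CPM in controls and 10.3, 11.8 and 9.6 CPM after exposure and a log2 fold change of 0.047 (adjusted p = 0.943) with 6 libraries. Exons of Kcnq1 and Kcnq1ot1 shared 121 bases on opposite strands, and 625 exon bases of Cdkn1c were covered by an antisense gene. The strand setting of the counting was not given in the sources used here.

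On chromosome 12 the Dlk1-Dio3 cluster holds 3 paternally expressed protein genes and 3 maternally expressed noncoding RNAs in this list. The paternal genes had lower means after exposure and the maternal ones higher means, and 1 of the 6, Dlk1, was called in replicates 1 and 2. Dlk1 (chr12:109452823-109463336, plus strand), an EGF repeat protein that holds back differentiation of progenitor cells and the highest gene of the cluster per kilobase, had 263, 292 and 151 CPM in control replicates 1, 2 and 3 and 142, 144 and 212 CPM in APAP+IBU replicates 1, 2 and 3. Exposed replicates 1 and 2 were closely similar and control replicate 3 stood near them, while exposed replicate 3 was higher. The log2 fold change of Dlk1 was -0.50 (SE 0.27, adjusted p = 0.695) with all 6 libraries and -0.94 (SE 0.094, adjusted p = 0.00514) with replicates 1 and 2, a fall to 0.523 of control, and correction for length and GC content left it at -0.90 (SE 0.10, adjusted p = 0.00657). Dlk1 is strongly made in fetal liver, and a liver share in its level was not tested. Summed liver genes were highest in replicate 3, at 2187 CPM in the control and 3570 CPM in the exposed library. Dlk1 was the lowest of the controls in the former and the highest of the exposed libraries in the latter. With the mean log2 CPM of the liver genes as a covariate over 6 libraries, the log2 fold change of Dlk1 was -0.51 (SE 0.29, adjusted p = 0.766). Rtl1 (chr12:109589193-109600330, minus strand), a gene derived from a retrotransposon that the fetal vessels of the placenta need, had 3.3, 3.75 and 3.45 CPM in control replicates 1, 2 and 3 and 1.95, 2.49 and 2.73 CPM in APAP+IBU replicates 1, 2 and 3. All exposed libraries lay below all controls. The difference was -0.55 (SE 0.24, adjusted p = 0.695) with an unadjusted p of 0.0472 in edgeR's test over 6 libraries and -0.65 (adjusted p = 0.11) in replicates 1 and 2. Since the microRNA strand shown above runs along Rtl1, reads of the maternal precursor and of Rtl1 could be separated only by strand. Dio3, which inactivates thyroid hormone, had 6.64, 5.22 and 2.79 CPM in controls and 3.06, 4.93 and 3.64 CPM after exposure, with ranges that overlapped, and a log2 fold change of -0.33 (adjusted p = 0.764).

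Of the maternal RNAs, Meg3 had 183, 288 and 279.8 CPM in controls and 384, 285 and 201 CPM after exposure. Control replicate 1 was the lowest and exposed replicate 1 the highest of the 6 libraries. Rian, the host of many small nucleolar RNAs, had 233, 334 and 399 CPM in controls and 461, 341 and 345 CPM after exposure. Mirg, the microRNA host, had 15.8, 21.2 and 19.4 CPM in controls and 22.3, 18.7 and 23.2 CPM after exposure. For all 3 RNAs the groups overlapped. Their log2 fold changes with 6 libraries were 0.21 (adjusted p = 0.791), 0.25 (adjusted p = 0.73) and 0.19 (adjusted p = 0.737) in edgeR's test. In replicates 1 and 2 they were 0.53 (adjusted p = 0.146), 0.52 (adjusted p = 0.106) and 0.17 (adjusted p = 0.516), and the value of Rian after correction was -0.35 (adjusted p = 0.0814).

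Igf2r and Airn on chromosome 17 form an overlapping pair. Igf2r (chr17:12682406-12769664, minus strand) encodes the receptor that removes IGF2 from the cell surface and is expressed from the maternal copy, and Airn is the antisense RNA of the paternal copy that silences it there. Igf2r had 339.8, 399 and 506 CPM in control replicates 1, 2 and 3 and 412, 440.0 and 420.0 CPM in APAP+IBU replicates 1, 2 and 3. Control replicate 3 was the highest of all and control replicate 1 the lowest, with the exposed libraries close together between them. Igf2r had a log2 fold change of 0.031 (SE 0.16, adjusted p = 0.954) with all 6 libraries. Airn had 6.53, 10.3 and 13.6 CPM in controls and 16.3, 12.6 and 11.6 CPM after exposure and log2 fold changes of 0.41 (adjusted p = 0.7002) with 6 libraries, 0.80 (adjusted p = 0.0497) with replicates 1 and 2, where it rose, and 0.69 (adjusted p = 0.0623) after correction.

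At the proximal end of chromosome 7, Peg3 and Usp29 are expressed from the paternal and Zim1 from the maternal copy. Peg3 (chr7:6703892-6730431, minus strand), a zinc finger protein of fetal growth, was measured at 1091, 1297 and 1928 CPM in control replicates 1, 2 and 3 and 1903, 1956 and 1539 CPM in APAP+IBU replicates 1, 2 and 3. Control replicate 3 was as high as the exposed pair. The log2 fold change of Peg3 was 0.32 (SE 0.23, adjusted p = 0.701) with all libraries, 0.71 (SE 0.11, adjusted p = 0.00628) in replicates 1 and 2, a rise to 1.64 times the control level, and 0.28 (adjusted p = 0.116) after correction. Zim1 (chr7:6671269-6696450, minus strand), another zinc finger gene, had 153, 207 and 314 CPM in control replicates 1, 2 and 3 and 391, 336 and 275 CPM in APAP+IBU replicates 1, 2 and 3. Only control replicate 3 reached into the exposed range. With 6 libraries Zim1 had the largest positive log2 fold change of the 40 genes, 0.57 (SE 0.26, adjusted p = 0.695). It was 1.04 (SE 0.16, adjusted p = 0.00602) in replicates 1 and 2, a rise to 2.05 times control, 0.89 (adjusted p = 0.039) without control replicate 3 and 0.61 (SE 0.12, adjusted p = 0.0148) after correction, and it was called in each of these 3 smaller fits. Usp29, a ubiquitin protease gene, had 36.1, 37.6 and 45.9 CPM in controls and 36.4, 43.7 and 36.4 CPM after exposure and log2 fold changes of -0.039 (adjusted p = 0.937) with 6 libraries, 0.14 (adjusted p = 0.417) in replicates 1 and 2 and -0.48 (adjusted p = 0.0398) after correction. An antisense gene, Zim3, covered 2582 of its exon bases.

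The central part of chromosome 7 holds the Snrpn cluster, the counterpart of the human Prader-Willi and Angelman region, with 5 paternally expressed genes and Ube3a in this list. Ndn (chr7:62346569-62350262, plus strand), a MAGE family protein that restrains proliferation and the highest gene of the cluster per kilobase, had 152, 120.4 and 74.7 CPM in control replicates 1, 2 and 3 and 89.8, 90.9 and 106 CPM in APAP+IBU replicates 1, 2 and 3. Control replicate 3 was lowest of the 6. Ndn had a log2 fold change of -0.28 (SE 0.24, adjusted p = 0.727) with 6 libraries, -0.57 (SE 0.12, adjusted p = 0.0145) in replicates 1 and 2 and -0.77 (SE 0.14, adjusted p = 0.012) after correction, and it was called in the latter pair of fits. Magel2 (chr7:62377010-62381640, plus strand), a relative of Ndn that works with ubiquitin ligases, had 4.72, 5.17 and 3.92 CPM in control replicates 1, 2 and 3 and 5.76, 6.81 and 7.11 CPM in APAP+IBU replicates 1, 2 and 3. The groups did not overlap, with 4.6 ± 0.635 CPM in controls and 6.56 ± 0.709 CPM after exposure (mean ± SD, n = 3 each). Magel2 had a log2 fold change of 0.51 (SE 0.21, adjusted p = 0.695) at an unadjusted p of 0.0392 in edgeR's test with 6 libraries, and 0.37 (adjusted p = 0.227) in replicates 1 and 2.

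Mkrn3 (chr7:62417593-62420139, minus strand), a ubiquitin ligase gene known as a brake on puberty, had 4.85, 6.64 and 5.67 CPM in control replicates 1, 2 and 3 and 7.31, 8.14 and 6.85 CPM in APAP+IBU replicates 1, 2 and 3. Exposed libraries again lay above all controls, at 0.38 (SE 0.20, adjusted p = 0.695) on the log2 scale with 6 libraries. Peg12 (chr7:62461871-62464510, minus strand) had 18.9, 16.8 and 16.5 CPM in control replicates 1, 2 and 3 and 14.6, 15.7 and 15.7 CPM in APAP+IBU replicates 1, 2 and 3, all exposed values being below the controls, and a log2 fold change of -0.18 (SE 0.15, adjusted p = 0.714). Snrpn, a core protein of the splicing machinery whose exons are shared in part with Snurf, had 39.7, 33.6 and 30.2 CPM in controls and 28.2, 29.5 and 31.1 CPM after exposure, with a log2 fold change of -0.22 (adjusted p = 0.7002) over 6 libraries. Ube3a, a ubiquitin ligase that is imprinted in neurons and made from both copies in most other cells, had 93.7, 111 and 177 CPM in controls and 185, 176 and 138 CPM after exposure. Control replicate 3 was in the range of the exposed pair. Ube3a had a log2 fold change of 0.39 (adjusted p = 0.7002) with 6 libraries, rose in replicates 1 and 2 at 0.84 (SE 0.11, adjusted p = 0.00529), and was at -0.0096 (adjusted p = 0.958) after correction.

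On chromosome 6, Mest (chr6:30723547-30748465, plus strand), a hydrolase family gene of mesodermal tissues expressed from the paternal copy, had 959, 994 and 1077 CPM in control replicates 1, 2 and 3 and 1022, 871 and 990.3 CPM in APAP+IBU replicates 1, 2 and 3. The ranges overlapped and its log2 fold change was -0.071 (SE 0.13, adjusted p = 0.86) with 6 libraries. Its convergent neighbour Copg2 (chr6:30747554-30896794, minus strand), a subunit of the vesicle coat, had 166, 153.0 and 176 CPM in control replicates 1, 2 and 3 and 143, 152.6 and 144 CPM in APAP+IBU replicates 1, 2 and 3. Exposed values were below the controls without overlap, at a log2 fold change of -0.17 (SE 0.11, adjusted p = 0.7002). The ends of both genes shared 912 exon bases on opposite strands.

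Also on chromosome 6, the maternally expressed genes of the Peg10-Sgce cluster, Asb4 and Ppp1r9a, moved in opposite directions in replicates 1 and 2. Peg10 (chr6:4747306-4760517, plus strand), a retrotransposon-derived gene that the placenta needs and the highest of the cluster per kilobase, had 397, 450.3 and 541 CPM in control replicates 1, 2 and 3 and 462, 592 and 431 CPM in APAP+IBU replicates 1, 2 and 3 and a log2 fold change of 0.10 (SE 0.18, adjusted p = 0.858) with 6 libraries. Sgce, the epsilon sarcoglycan gene that shares its promoter region, had 39.1, 38.7 and 38.3 CPM in controls and 41.2, 41.4 and 36.3 CPM after exposure. Its log2 fold changes were 0.035 (adjusted p = 0.929) with 6 libraries and 0.11 (adjusted p = 0.456) in replicates 1 and 2. After correction the latter turned to -0.58 (adjusted p = 0.0182), so its call as lower came only with the correction. Asb4 (chr6:5383386-5433022, plus strand), a maternally expressed substrate receptor of a ubiquitin ligase, had 32.6, 33.5 and 39 CPM in control replicates 1, 2 and 3 and 25.8, 24.8 and 30.0 CPM in APAP+IBU replicates 1, 2 and 3. Every exposed library was below every control. The log2 fold change of Asb4 had the smallest p of the 40 genes with 6 libraries, -0.38 (SE 0.15, adjusted p = 0.695) at an unadjusted p of 0.0308 in edgeR's test. Asb4 fell in replicates 1 and 2 at -0.36 (SE 0.11, adjusted p = 0.0469) and after correction at -0.57 (SE 0.10, adjusted p = 0.0124). Ppp1r9a (chr6:4902917-5165661, plus strand), the neurabin gene whose protein ties a phosphatase to actin, had 54.1, 76.6 and 109.6 CPM in controls and 129, 126 and 91.1 CPM after exposure. Control replicate 3 lay between the exposed libraries. Its log2 fold changes were 0.53 (SE 0.26, adjusted p = 0.695) over 6 libraries, 0.99 (SE 0.16, adjusted p = 0.00662) in replicates 1 and 2, where it rose to 1.98 times control, and 0.49 (adjusted p = 0.0249) after correction.

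Zrsr1, a paternally expressed splicing factor gene, lies within Commd1 on chromosome 11, on the opposite strand, and their exons shared 412 bases. Commd1 (chr11:22896136-22982382, minus strand), a gene of copper handling and the higher of the pair per kilobase, had 56.8, 55.6 and 37 CPM in control replicates 1, 2 and 3 and 42.4, 40.3 and 48.7 CPM in APAP+IBU replicates 1, 2 and 3. It had a log2 fold change of -0.19 (SE 0.19, adjusted p = 0.757) with all libraries, fell in replicates 1 and 2 at -0.42 (SE 0.10, adjusted p = 0.0197) and after correction at -0.67 (SE 0.10, adjusted p = 0.00867). Zrsr1 had 12.4, 11.9 and 14.8 CPM in controls and 12.6, 12.4 and 14.6 CPM after exposure and 0.015 (adjusted p = 0.978) on the log2 scale with overlapping ranges.

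The remaining 7 genes are the only listed members of their loci. Plagl1, a paternally expressed zinc finger regulator of other imprinted genes on chromosome 10, had 91.1, 148 and 238 CPM in controls and 283, 172 and 191 CPM after exposure. Its log2 fold change was 0.44 (SE 0.34, adjusted p = 0.708) with 6 libraries and 0.95 (adjusted p = 0.102) in replicates 1 and 2. Zdbf2 on chromosome 1 had 16.2, 30.3 and 37.2 CPM in controls and 40.1, 36.7 and 26.5 CPM after exposure and log2 fold changes of 0.30 (adjusted p = 0.755) and 0.74 (adjusted p = 0.0832). Impact, a regulator of translation, had 42.5, 47.9 and 71.1 CPM in controls and 65.3, 57.8 and 56 CPM after exposure, and it rose in replicates 1 and 2 at 0.47 (adjusted p = 0.0241) against 0.15 (adjusted p = 0.804) with 6 libraries and 0.10 (adjusted p = 0.528) after correction. Control replicate 3 had the highest Impact level of all. For the other 4 genes the ranges of the groups overlapped. Grb10, an adaptor that damps insulin and IGF receptors, had 492, 582 and 683 CPM in controls and 611, 545 and 522 CPM after exposure. Gnas, the stimulatory G protein subunit, had 783, 961 and 708 CPM in controls and 786, 799 and 815 CPM after exposure. Nnat, a small membrane protein of neural and endocrine cells, had 169.9, 160.2 and 115 CPM in controls and 167, 131 and 164 CPM after exposure. For Gnas the exposed libraries all lay within the control range. Slc38a4, an amino acid transporter gene, had 98.1, 115 and 141 CPM in controls and 118, 106 and 114 CPM after exposure. The log2 fold changes of these 4 genes with 6 libraries were -0.066, -0.031, 0.052 and -0.065, with adjusted p from 0.889 to 0.949 in edgeR's test.

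**Figure D3:**
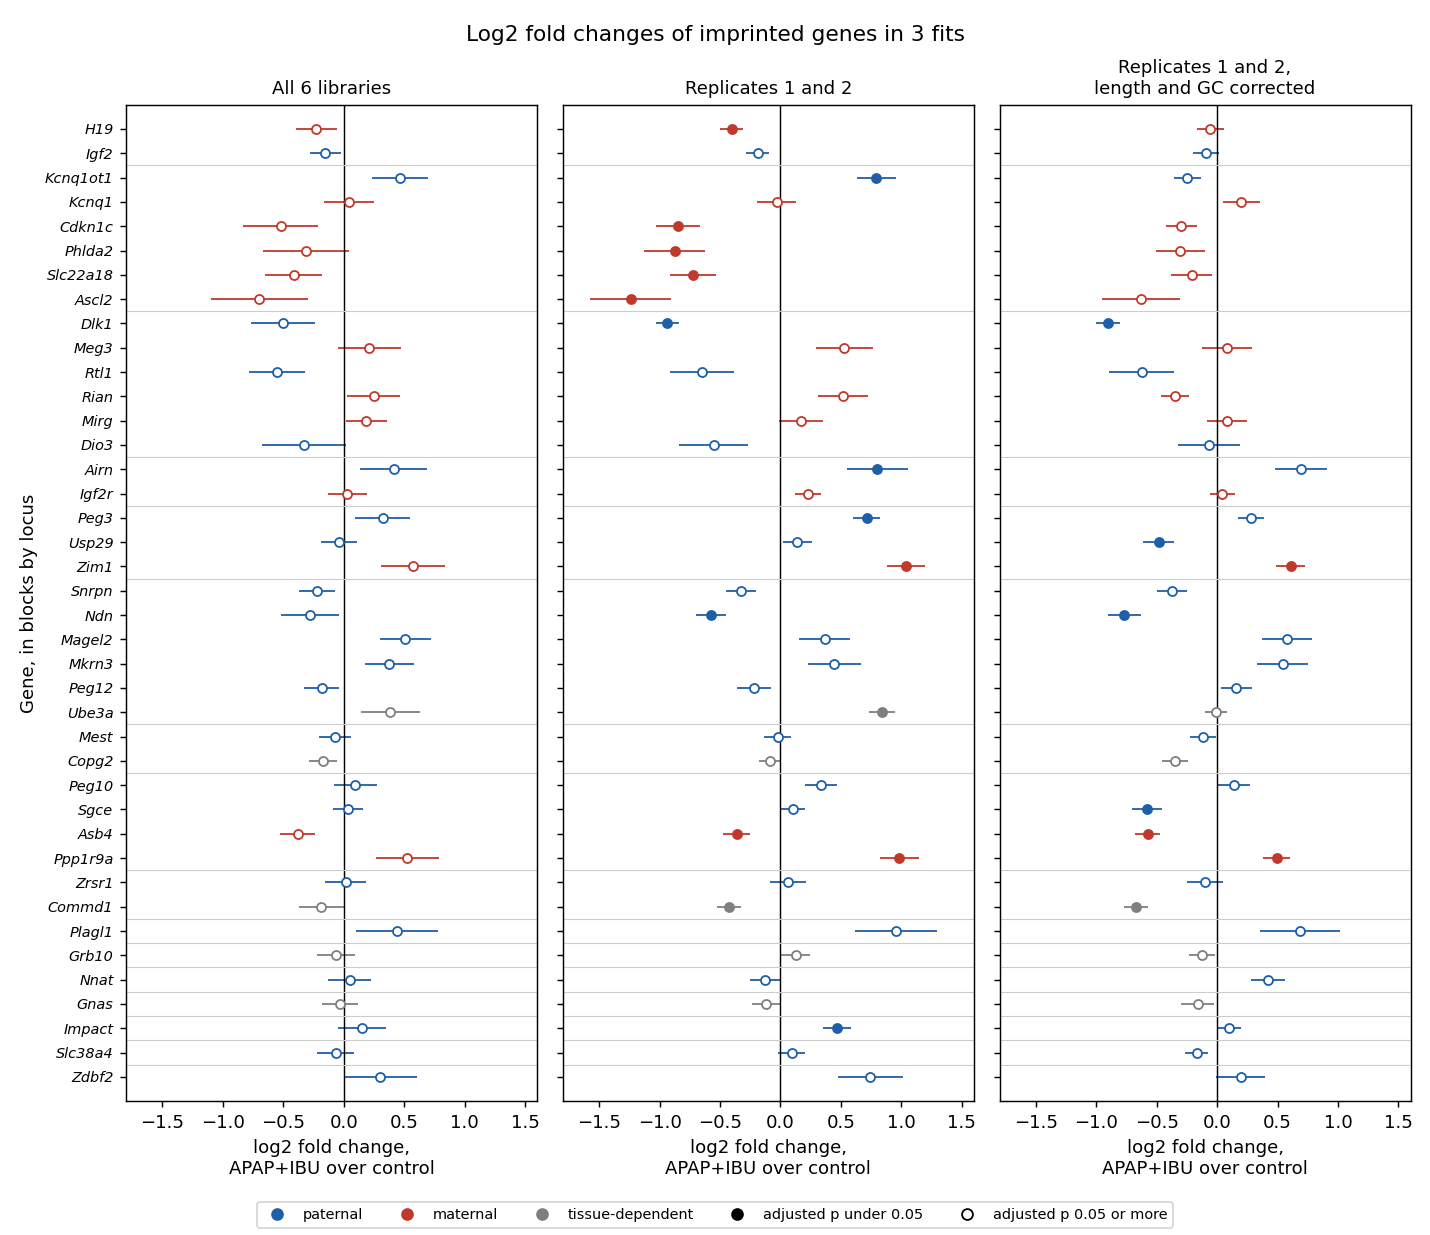
Log2 fold change of APAP+IBU over control (horizontal axis) for each of the 40 genes (rows, in blocks by locus) in edgeR's fits to all 6 libraries, to replicates 1 and 2, and to replicates 1 and 2 after correction for length and GC content; bars are standard errors, filled points have an adjusted p under 0.05, and colours give the expressed allele. No point is filled in the left panel, 16 are filled in the middle one and 8 in the right one.

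Grouped by the expressed allele assigned to each gene, the medians were near those of all genes. With 6 libraries the median log2 fold change was 0.025 for the 22 paternally expressed genes (12 higher, 10 lower), 0.031 for the 13 maternally expressed ones (7 higher, 6 lower) and -0.066 for the 5 others (1 higher, 4 lower), against -0.0047 for all genes tested. In replicates 1 and 2, 4 paternally expressed genes rose and 2 fell, while 2 maternally expressed genes rose and 6 fell, against 14.4% of all genes tested higher and 13.1% lower in that fit. The 6 maternal genes that fell were H19, Cdkn1c, Phlda2, Slc22a18, Ascl2 and Asb4, and 1 of them, Asb4, was still called after correction for length and GC content.

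Ratios within a library do not depend on how libraries were scaled, so 7 pairs of linked genes were compared. In all but 1 of them a maternally was set over a paternally expressed gene, the exception being Commd1 over Zrsr1. The ratios were not corrected for length and GC content. An exact two-sided permutation test on the log2 ratio was used, and with 3 against 3 libraries it cannot give a p under 0.1. The count ratio of H19 to Igf2 was 1.92, 1.87 and 1.48 in controls and 1.64, 1.63 and 1.76 after exposure. Control replicate 3 lay below the exposed libraries and the other controls above them, and the difference of means was -0.061 on the log2 scale (exact permutation p = 0.8). Igf2r to Airn was 52, 38.8 and 37.3 in controls and 25.3, 34.9 and 36.2 after exposure, with all controls above all exposed libraries and a difference of -0.41 (exact permutation p = 0.1, adjusted over 7 pairs 0.233). Zim1 to Peg3 was 0.14, 0.16 and 0.163 in controls and 0.206, 0.172 and 0.179 after exposure, higher in all exposed libraries by 0.26 with the same exact p. Asb4 to Sgce was 0.832, 0.865 and 1.02 in controls and 0.627, 0.6003 and 0.825 after exposure, lower in all exposed libraries with a difference of -0.41 on the log2 scale and again the same exact p. The groups were separate for 3 of the 7 pairs, at the smallest p that the design allows, and none passed the adjustment. In replicates 1 and 2 after correction for length and GC content, Asb4 and Sgce had similar log2 fold changes, -0.57 and -0.58, against -0.36 and 0.11 without it. In the corrected fit Igf2r and Airn had 0.042 and 0.69, and Zim1 and Peg3 had 0.61 and 0.28. Cdkn1c to Kcnq1ot1 was 26.5, 13.5 and 6.94 in controls and 5.2, 7.22 and 11.1 after exposure, a difference of -0.86 (exact permutation p = 0.3). Meg3 to Dlk1 was 0.695, 0.987 and 1.85 in controls and 2.71, 1.98 and 0.946 after exposure, a difference of 0.67 (exact permutation p = 0.3). For these pairs the replicate 3 libraries stood on the side opposite to their group. Commd1 to Zrsr1 was 4.57, 4.67 and 2.5 in controls and 3.36, 3.25 and 3.34 after exposure, a difference of -0.18 (exact permutation p = 0.4).

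**Figure D4:**
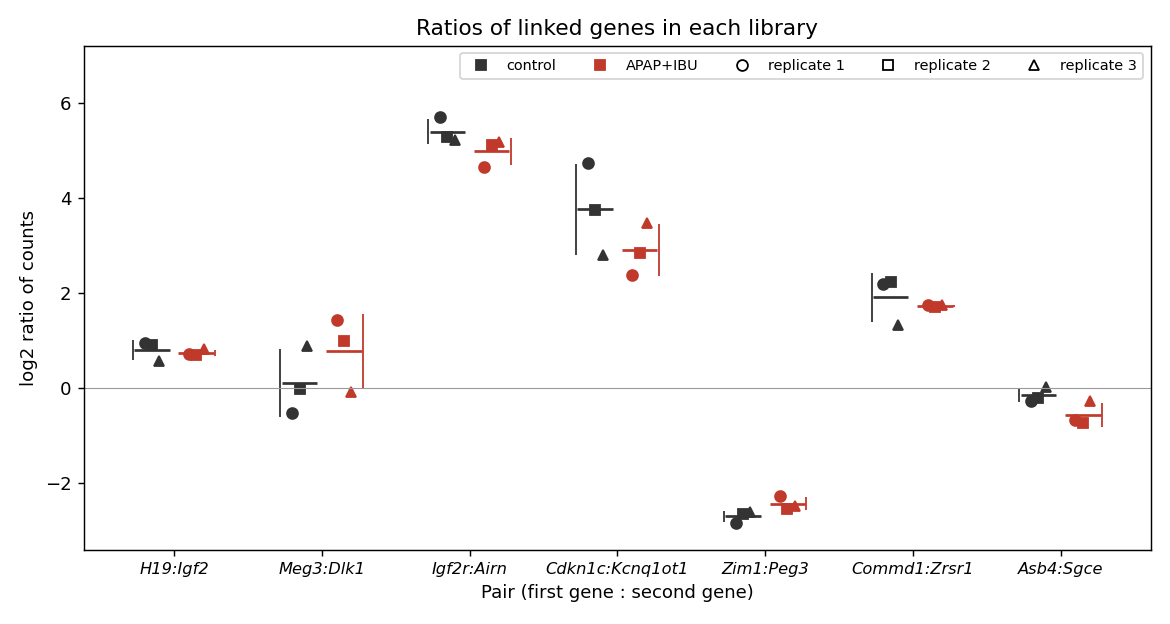
Log2 ratio of counts (vertical axis) of 7 pairs of linked genes (horizontal axis) in each control (black) and APAP+IBU (red) library, with the replicate shown by the marker, the group mean by the horizontal line and 1 SD by the vertical bar. The groups separate for Igf2r:Airn, Zim1:Peg3 and Asb4:Sgce, and for Meg3:Dlk1 and Cdkn1c:Kcnq1ot1 the replicate 3 libraries cross over.

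The proteins that read or set imprints were looked at as a list of 19 genes, of which 18 were tested and Dnmt3l, the cofactor of germline methylation, was nearly absent. With 6 libraries 14 were higher, 4 lower and 0 called, with a median log2 fold change of 0.19. The smallest p values were those of Dppa3, which protects maternal imprints in the zygote, Arid4b, a chromatin protein at the Snrpn region, and Tet2, an enzyme that oxidises methylcytosine. Dppa3 had 93.5, 54.5 and 63.5 CPM in controls and 37.2, 36.3 and 60.4 CPM after exposure and a log2 fold change of -0.66 (adjusted p = 0.695). Arid4b had 49.8, 70.7 and 110.0 CPM in controls and 141, 135 and 94.7 CPM after exposure and a log2 fold change of 0.69 (adjusted p = 0.695). Tet2 had 27.6, 34.1 and 64.2 CPM in controls and 72.9, 65.9 and 60.9 CPM after exposure and a log2 fold change of 0.67 (adjusted p = 0.695). For Tet2 the exposed libraries exceeded controls 1 and 2, and control replicate 3 lay among them. In replicates 1 and 2, 9 of the 18 rose and 4 fell, and after correction for length and GC content 4 remained called, all higher. Over all genes tested 14.4% were higher and 13.1% lower in the first of these fits, and 5.94% and 8.57% in the second. These were Zfp445, a zinc finger protein that keeps imprints, at 1.27 (adjusted p = 0.00657), Tet2 at 0.64 (adjusted p = 0.00891), Arid4b at 0.54 (adjusted p = 0.0154) and Arid4a at 0.47 (adjusted p = 0.03996). ZFP57 itself is encoded by a gene that had 44.3, 54.9 and 59.3 CPM in controls and 69.8, 54.8 and 53.3 CPM after exposure, without a call in any of these fits.

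Of 17 genes of IGF signalling, the pathway on which Igf2, Igf2r and Grb10 act, 8 were higher, 9 lower and 0 called with 6 libraries. The smallest p values belonged to Igfbp4, Igf2bp1 and Igfbp6, which bind IGFs or Igf2 RNA. The carrier protein gene Igfbp4 had 751, 627 and 419.7 CPM in controls and 415, 444 and 480.4 CPM after exposure and a log2 fold change of -0.43 (adjusted p = 0.695). Igf2bp1 had 128, 122 and 137 CPM in controls and 115, 112 and 114 CPM after exposure and a log2 fold change of -0.18 (adjusted p = 0.697), without overlap of the groups. Igfbp6 had 11.3, 8.81 and 2.63 CPM in controls and 3.81, 4.00 and 5.47 CPM after exposure, with control replicate 3 the lowest of all, and a log2 fold change of -0.78 (adjusted p = 0.698). In replicates 1 and 2, 3 rose and 3 fell, and after correction 1 was higher and 3 lower, where 27.5% and 14.5% of all genes tested were called. Of 36 further imprinted genes, 33 were tested, and with 6 libraries 14 were higher, 19 lower and 0 called. H13, a signal peptide peptidase gene, had 111, 109.8 and 86.6 CPM in controls and 86.7, 81.4 and 91.1 CPM after exposure and a log2 fold change of -0.24 (adjusted p = 0.695). Ddc, which makes dopamine and serotonin, had 9.08, 11.9 and 11 CPM in controls and 7.53, 6.14 and 10.4 CPM after exposure and -0.41 (adjusted p = 0.696) on the log2 scale. Slc22a3, a transporter of organic cations next to Igf2r, had 1.18, 1.45 and 1.75 CPM in controls and 1.1, 0.59 and 1.25 CPM after exposure and -0.57 (adjusted p = 0.7002) on the log2 scale. These were the 3 genes of the list with the smallest p. In replicates 1 and 2, 3 of the 33 rose and 3 fell, and after correction 1 was higher and 2 were lower, again against 27.5% and 14.5% of all genes tested.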

How the data were processed

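Pools of 13.5 dpc mouse ovaries gave 6 libraries, 3 control and 3 APAP+IBU. From stranded libraries of polyadenylated RNA, the authors aligned reads on mm10 with TopHat2 2.0.14 and Bowtie2 2.1.0, counted them per Ensembl gene with HTSeq 0.6.1 and deposited raw counts without normalisation. The strand setting of the counting is not given in the sources used here. Groups and replicate numbers came from the sample labels, where the titles of exposed samples name ibuprofen alone while the exposure label names both drugs.

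From these counts, edgeR 4.0.16 in R 4.3.3 was run with TMM normalisation, its expression filter, the robust quasi-likelihood test and Benjamini-Hochberg adjustment over all genes tested. Levels are TMM-scaled CPM. Symbols, positions, exon lengths and GC content came from the GENCODE annotation of GRCm38, the assembly of mm10, and 48349 of 48709 identifiers had a symbol. The length and GC correction was a loess fit per library with a span of 0.3. Ratios used counts plus 0.5. With total counts of 37811968 to 48954631 per library, counting error is small for genes with many reads. For genes with few reads it adds to the spread between pools that the p-values measure. Within groups, chi-square per degree of freedom of library pairs was 19.4 to 163, so no library was a duplicate. Simulated data with known changes were used to check the edgeR fit to every library, that with the replicate number as a block, and that without the replicate libraries high in liver genes. The other fits, among them those with the length and GC correction, were not checked in this way.

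The 40 genes and the other lists were chosen with earlier results of these data known. All 40 are named, with full statistics for the highest gene of each multi-gene locus, the 5 with the smallest p and those whose groups do not overlap. Of the other lists, called genes or else the 3 with the smallest p over 6 libraries are named, and Dnmt3l, Zfp57 and the genes still called after correction were named after their values were seen. Alternatives were DESeq2 1.42.0, its size factors, no expression filter, the replicate number as a block, the correction above, the liver list as a covariate, replicates 1 and 2 only and each library left out. The correction within replicates 1 and 2 was added after the data had been seen.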

Additional observations from a re-analysis of the deposited data

How the results depend on the processing

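Neither DESeq2, its size factors, a filter of 1 count, the liver covariate, nor the correction for length and GC content in all 6 libraries brought any of the 40 genes under an adjusted p of 0.05, and the choice of libraries did. Over all genes, DESeq2 called 192, and there were 120 with every gene of at least 1 count, 5668 with replicates 1 and 2 and 2984 with these and the correction. For the 40 genes the last 2 settings gave 16 and 8, for the imprint factors 13 and 4, for IGF signalling 6 and 4, and for the further imprinted genes 6 and 3. Leaving out each library in turn gave 0 to 1407 calls over the whole table, 0 to 3 of the 40 genes, 0 to 5 imprint factors and 0 to 3 IGF genes, and each maximum was the fit without control replicate 3. The causes were not tested.

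The median log2 fold change of all 40 genes became -0.064 with the correction, 0.078 with replicates 1 and 2 and -0.095 with both. That of the paternal genes became -0.053, 0.10 and -0.080, and that of the maternal genes -0.057 with both, and between -0.11 (without control replicate 3) and 0.030 when 1 library was left out. Under the correction the sign turned for Kcnq1ot1 (-0.15), Ube3a (-0.029), Impact (-0.0042), Zrsr1 (-0.043), Igf2r (-0.042), Rian (-0.20), Sgce (-0.36) and Meg3 (-0.025). It turned in replicates 1 and 2 for Grb10 (0.13), Nnat (-0.12), Slc38a4 (0.095), Usp29 (0.14) and Kcnq1 (-0.030), and with the correction there for Sgce (-0.58), Rian (-0.35), Zrsr1 (-0.098), Kcnq1ot1 (-0.25), Ube3a (-0.0096) and Peg12 (0.16). Leaving out 1 library gave -0.11 to 0.16 for Kcnq1, -0.70 to 0.072 for Phlda2, -0.053 to 0.40 for Meg3, -0.095 to 0.20 for Igf2r, -0.14 to 0.076 for Usp29, -0.061 to 0.23 for Peg10, -0.0060 to 0.070 for Sgce, -0.085 to 0.12 for Zrsr1, -0.18 to 0.059 for Grb10, -0.10 to 0.16 for Nnat, -0.12 to 0.10 for Gnas and -0.18 to 0.084 for Slc38a4. The H19 to Igf2 log2 ratio ran from -0.18 to 0.0083, and was 0.0083 without control replicate 1.

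Over all genes tested, deviations of same-numbered libraries from their group means had correlations of -0.071, -0.015 and -0.045. Both replicate 3 libraries were nonetheless high in liver genes, so these correlations cannot decide whether the numbers pair the pools. With the replicate block 0 of the 40 genes and 0 genes over the whole table were called, and the block with the correction called 38 over the whole table and 0 of the 40. In that fit the median was -0.071 for all 40 and -0.060 for the paternal genes, and the sign turned for Rian (-0.20), Sgce (-0.33), Igf2r (-0.034), Kcnq1ot1 (-0.14), Ube3a (-0.028), Meg3 (-0.042) and Zrsr1 (-0.045). Depth was lowest for Ascl2, with 45 to 101 reads per library. It was also low for Rtl1, with 99 to 150 reads, and Magel2, with 170 to 312 reads. Counting error adds to the spread between pools for such genes.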
